A study of Mus musculus with 6 samples.

Results

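The respiratory chain members described here are the nuclear genes for the subunits of mitochondrial complexes I to V, together with the complex I assembly factors that share their name stem. They were chosen by name alone: protein-coding entries whose symbols begin with Nduf, Uqcr or Atp5, the Cox4 to Cox8 families, and Sdha, Sdhb, Sdhc and Sdhd. This gave 95 genes of the 55471 in the deposited table, under 94 symbols, with 47 in complex I, 4 in complex II, 8 in complex III, 18 in complex IV and 18 in complex V. The 47 genes of complex I include 8 assembly factors, which help to build the complex and are not part of the finished enzyme.

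Hematopoietic stem cells were sorted from mice as lineage-negative, Kit+, Sca1+, CD48-, CD150+ cells, and their total RNA was sequenced. All 6 libraries carried the ETV6-RUNX1 genotype, an inducible form of the fusion gene found in childhood B-cell acute lymphoblastic leukemia. The 3 induced libraries came from mice given doxycycline in their food for 2 weeks, and the 3 uninduced libraries from mice of the same genotype without it, so the comparison asks how RNA levels differ once the fusion is switched on. Doxycycline and the fusion changed together between the groups, and their effects cannot be told apart here. The labels give no age and do not say whether each library came from 1 animal or from a pool, so every p-value measures only the spread between these libraries.

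The respiratory chain passes electrons from NADH (complex I) and succinate (complex II) through ubiquinone, complex III and cytochrome c to oxygen at complex IV. Complexes I, III and IV pump protons across the inner mitochondrial membrane, and complex V, the ATP synthase, lets them flow back to make ATP. Most subunits are encoded in the nucleus and imported, while a small set is encoded by mitochondrial DNA, so each of complexes I, III, IV and V is built from the products of both genomes. Complex II is encoded by the nucleus alone. Resting blood stem cells are known for low mitochondrial activity and a reliance on glycolysis, and for turning to oxidative phosphorylation as they divide and differentiate.

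Levels are given in TPM, the share of a library's transcripts that comes from a gene, corrected for transcript length and scaled to the same total in every library. The read depth behind the values is unknown, so no counting interval is given. Changes are differences of log2(TPM + 1), induced minus uninduced, which understate the change of low genes, and a gene counts as called at a limma adjusted p under 0.05 over the 13470 genes whose mean reached 1 TPM. The median change over all 13470 tested genes was -0.35, not 0, and after median-of-ratios scaling, which sets the typical gene to no change, it was 0.0032. Called members are therefore also given on that rescaled basis. A lower TPM in a bulk library can come from fewer cells of a type or from less RNA of the gene per cell. It can also come from other RNAs taking a larger share of the library, and these cannot be told apart.

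The stem cell markers were present, with summed levels of 492 to 668 TPM (uninduced) and 580 to 624 TPM (induced), and of the 10 tested, 3 were called higher (Ly6a, Hlf and Procr), against 1.29% of all tested genes, and 2 lower, 20% against 10.2%. Of those called lower, Kit had a change of -0.81 (limma adjusted p = 0.035). After rescaling 5 were called higher and 1 lower. The median change of the 10 was 0.46, with 4 changes below 0. Cd48, which the sort removes, stood at 0 to 3.02 TPM and 0 to 0.991 TPM. The mouse genes of the fusion partners did not separate the groups: Runx1 stood at 46.1, 35.6 and 29.4 TPM uninduced and 49.8, 39.3 and 44.1 TPM induced, and Etv6 at 79.0, 95.4 and 79.0 TPM against 82.7, 79.4 and 86.8 TPM. The fusion transcript itself was not analysed here, so these values do not check the induction. Of 8 proliferation markers, 7 were called lower, and their summed level was 342 to 411 TPM uninduced and 75.6 to 108 TPM induced. Of 9 erythroid markers, 7 were called higher, with summed levels of 56.9 to 62.7 TPM and 415 to 479 TPM. Myeloid markers summed to 234 to 284 TPM in both groups. Of 6 tested, 1 was called higher (2 after rescaling) and 0 lower, and 4 changes were below 0. Of 9 lymphoid markers, 7 were at 0 in every library, and the lymphoid gene Nkg7 stood at 5.84 to 15.8 TPM uninduced and 0 induced. The megakaryocyte and platelet markers summed to 102 to 135 TPM uninduced and 119 to 129 TPM induced, with 2 of 5 tested called higher (Ppbp and Pf4) and 1 lower (Gp9). Of 6 endothelial and stromal markers, 2 were at 0 in every library, and the list summed to 14.6 to 25.1 TPM uninduced and 29.1 to 39.0 TPM induced. Whether these differences in marker levels play a part in the results on the respiratory chain was not tested.

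Of the 95 members, 87 passed the filter and were tested. The other 8 were listed at 0 in every library: Ndufs3, Ndufa4l2, Cox6a2, Cox7a1, Cox7b2, Cox8b, Cox8c and a second identifier of Atp5o. Cox6a2, Cox7a1 and Cox8b are isoforms known from heart and skeletal muscle, and Cox7b2 and Cox8c are known from testis. Ndufs3 is different in kind, since it encodes a core subunit of complex I that every respiring cell needs, and a listed 0 can be a failed estimate. A processed pseudogene 98.6% identical to its coding sequence, Gm12251 at chr11:58392769-58393560 on the minus strand (GRCm38), was listed at a mean of 5.05 TPM over the 6 libraries.

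On the deposited scale, 21 of the 87 tested members were called lower in the induced cells and 0 were called higher. This is 24.1% of the members, against 10.2% of all tested genes called lower and 1.29% called higher. Among genes averaging 5 TPM or more, the shares called lower were 29.1% and 16.3%. The members were also measured more tightly, with a median standard error of 0.25 against 0.35 for all tested genes. Whether level and precision play a part in the gap was not tested. A further way to count is by overlap: in 45 members, 51.7%, every induced library lay below every uninduced one, against 28.2% of all tested genes, and the reverse order occurred in 0 members against 4.83% of all tested genes. The members' median change was -0.56, and 80 of the 87 changes were below 0.

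After median-of-ratios scaling, 1 member was called lower and 0 were called higher, against 3.1% and 2.88% of all tested genes (5.98% in either direction). The count without overlap was then 19 members, 21.8%, against 14.3% of all tested genes, and 0 members had the reverse order against 13.6%. The members' median change was -0.16, with 65 changes below 0 and 22 above. The number of called members thus depended on the scale. It also depended on the model: on the deposited scale without limma's variance trend, 4.6% of the members and 4.89% of all tested genes were called lower. The members' median lay below that of all tested genes on both, by 0.22 on the deposited scale.

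**Figure D1:**
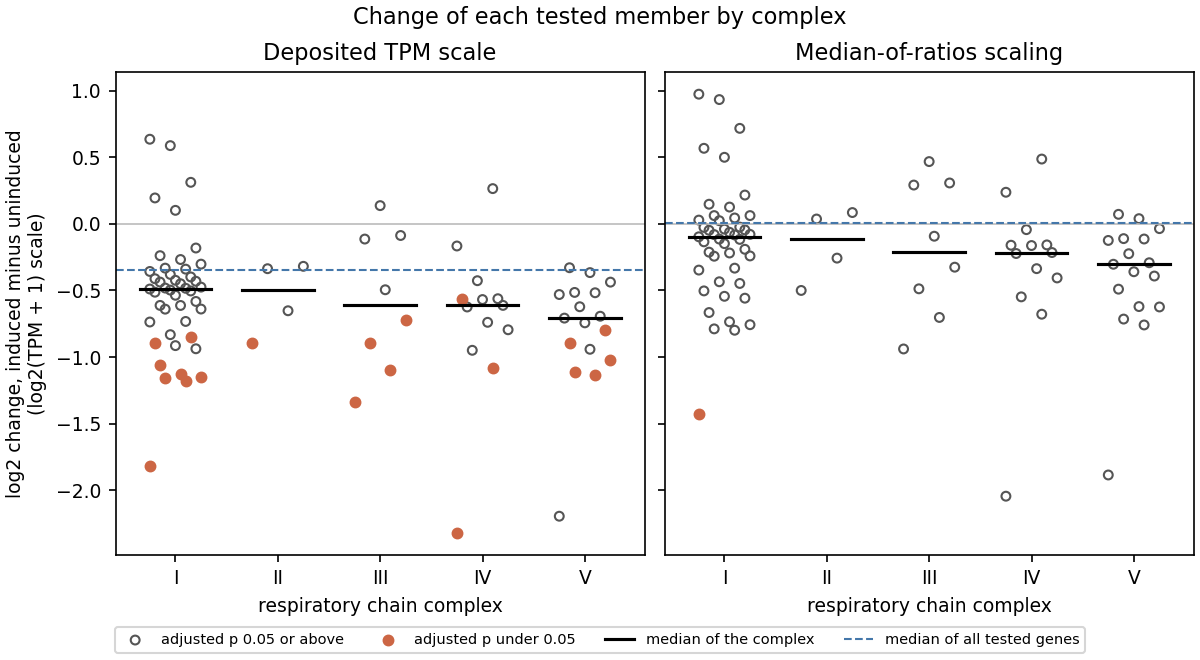
Change of each tested member (log2(TPM + 1), induced minus uninduced, y axis) by complex (x axis), on the deposited scale (left) and after median-of-ratios scaling (right). Filled points passed the limma threshold, black bars are medians by complex and the dashed line is the median of all tested genes: 21 members are filled on the left and 1, Ndufa12, on the right, and the median of complex V is the lowest of the complexes in both panels.

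Leaving out single libraries also moved the count of called members. It was 8, 5 and 16 without uninduced replicate 1, 2 and 3, and 10, 5 and 13 without induced replicate 1, 2 and 3. In the same order the share of members called lower was 9.2%, 5.75%, 18.4%, 11.5%, 5.75% and 14.9%, and that of all tested genes 5.52%, 4.76%, 8.5%, 5.14%, 3.89% and 6.19%. Without uninduced replicate 2 the members' share was thus near that of all genes. Ndufa12, Atp5b, Atp5o and Uqcrb were called in all 6 of these fits, and each of the remaining 17 lost its call in at least 3 of them.

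The members' levels spanned a wide range. Cox4i1 had the highest mean over the 6 libraries, 213 TPM, followed by Atp5mpl at 194 TPM, Atp5h at 175 TPM and Atp5b at 174 TPM. The lowest tested members were Cox4i2 at 3.49 TPM, Atp5g1 at 5.21 TPM, Ndufaf6 at 5.37 TPM and Ndufaf3 at 5.42 TPM. Partner subunits were not listed at like levels: Atp5a1 and Atp5b, whose products alternate in the catalytic head of the ATP synthase, had means of 11.4 and 174 TPM, and Uqcrc1 and Uqcrc2, the core proteins of complex III, had 5.63 and 33.8 TPM. The typical spread between libraries was 20.8% of the mean in the uninduced and 21.1% in the induced group (median SD over mean of the tested members).

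Complex I, the NADH dehydrogenase, had 8 of 45 tested members called lower, 17.8% against 10.2% of all tested genes, and a median change of -0.49 (-0.097 rescaled). Without the assembly factors, 6 of 37 were called lower, 16.2%, with a median of -0.50. After rescaling 1 of the 45 was called. Ndufa12, an accessory subunit needed late in assembly (chr10:94198720-94221443, plus strand, GRCm38), was the member called on both scales. Its uninduced libraries stood at 65.4, 34.4 and 33.9 TPM and its induced libraries at 9.39, 11.9 and 12.9 TPM. The groups did not overlap, with the highest induced library well under the lowest uninduced one. The change was -1.82 ± 0.29 (SE, limma adjusted p = 0.0053) on the deposited scale and -1.43 ± 0.28 (limma adjusted p = 0.021) after rescaling.

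Ndufa12 has a processed pseudogene with nearly the same letters, Gm15920 at chr5:130188395-130188796 on the plus strand, and reads from a copy this close can be assigned to either row. The copy matched 99.5% of the coding sequence over 402 aligned bases, with 2 differing positions. The stretch below, aligned positions 39 to 158 read from the GRCm38 genome, 5′ to 3′, shows how little separates them, and the capital marks the base that differs.
Ndufa12: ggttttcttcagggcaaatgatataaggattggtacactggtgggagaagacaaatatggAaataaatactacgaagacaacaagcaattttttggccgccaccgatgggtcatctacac
Gm15920: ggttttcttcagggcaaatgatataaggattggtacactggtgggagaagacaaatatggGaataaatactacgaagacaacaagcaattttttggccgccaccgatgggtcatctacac
The pseudogene row itself stood at 41.8, 61.4 and 50.9 TPM uninduced and 25.4, 24.0 and 22.6 TPM induced, so it carried more than the gene's own row in 5 of 6 libraries. Summed, the pair stood at 107, 95.7 and 84.8 TPM against 34.7, 35.9 and 35.5 TPM. The summed levels did not overlap between the groups, and the induced libraries lay within a range narrower than that of the gene's row alone. The summed change was smaller than that of the gene's row, -1.41 ± 0.17 (limma adjusted p = 0.0019), and -1.005 ± 0.15 after rescaling (limma adjusted p = 0.0072).

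The core subunits of complex I carry the flavin and iron-sulfur clusters that take electrons from NADH to ubiquinone. Ndufs8, which holds a pair of clusters near the quinone site, stood at 38.0, 57.8 and 42.8 TPM uninduced and 19.9, 28.9 and 13.6 TPM induced. The groups did not overlap, and the change was -1.15 ± 0.29 (limma adjusted p = 0.031) and -0.76 rescaled (limma adjusted p = 0.19). Ndufs1, the largest subunit of the electron input module, stood at 28.1, 34.2 and 24.6 TPM uninduced and 15.0, 18.2 and 12.3 TPM induced. Its change was -0.89 ± 0.24 (limma adjusted p = 0.041) and -0.50 rescaled (limma adjusted p = 0.24), again without overlap. Ndufs1 overlaps Eef1b2, a translation elongation factor gene at a mean of 307 TPM on the opposite strand, and the sources used here do not say whether strand was used in the quantification. In all, 22 members overlap a gene of at least 1 TPM on the opposite strand.

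Ndufv1, the flavin-binding subunit that receives electrons from NADH, missed the threshold. It stood at 57.4, 51.3 and 36.6 TPM uninduced and 26.9, 20.9 and 32.3 TPM induced, a change of -0.83 ± 0.24 (limma adjusted p = 0.054) and -0.43 rescaled, and it was called at -1.02 without uninduced replicate 3 (limma adjusted p = 0.037). Its partner Ndufv2 had a change of -0.64 (limma adjusted p = 0.060), and in both genes the groups did not overlap. Ndufs7, which carries the last iron-sulfur cluster before ubiquinone, had a change of -0.48 (limma adjusted p = 0.21), and its groups overlapped. Of the 7 core genes, 6 could be tested, and 2 were called lower and 0 higher, 33.3% against 10.2% of all tested genes called lower, with 0 called after rescaling. The median change was -0.74 (-0.34 rescaled), against -0.35 for all tested genes.

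Ndufa4 was first assigned to complex I and is now known as a subunit of complex IV, and is kept under complex I here by its name. It stood at 26.7, 50.03 and 44.2 TPM uninduced and 16.3, 14.2 and 19.8 TPM induced. The groups did not overlap, and the change was -1.18 ± 0.27 (limma adjusted p = 0.023) and -0.79 rescaled (limma adjusted p = 0.11). Its paralog Ndufa4l2, known as a hypoxia-induced gene, was listed at 0 in every library. The other called accessory subunits, named after their values were seen, were Ndufb10 at -0.85 and Ndufc1 at -1.12 (limma adjusted p = 0.042 and 0.046), both of the membrane arm. After rescaling they were at -0.45 and -0.74 (limma adjusted p = 0.19 and 0.20).

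Among the assembly factors of complex I, 2 of 8 were called lower, 25% against 10.2% of all tested genes, and 0 after rescaling. The median change was -0.37, close to that of all tested genes. Ndufaf4, which joins an early assembly intermediate (chr4:24898083-24905001, plus strand, GRCm38), stood at 12.3, 12.6 and 9.45 TPM uninduced and 4.10, 5.25 and 4.32 TPM induced. There was no overlap between the groups, and the change was -1.16 ± 0.29 (limma adjusted p = 0.031) and -0.80 rescaled (limma adjusted p = 0.12). Ndufaf2, a chaperone of late assembly that binds where Ndufa12 later sits, stood at 32.3, 44.7 and 43.8 TPM uninduced and 20.7, 15.0 and 20.8 TPM induced. Its change was -1.06 ± 0.23 (limma adjusted p = 0.019) and -0.67 rescaled (limma adjusted p = 0.11), without overlap. At the other end, Ndufaf3 had the highest change of all members, 0.64 ± 0.64 (limma adjusted p = 0.55), from 5.16, 8.45 and 0.458 TPM uninduced and 7.28, 7.86 and 3.34 TPM induced. These groups overlapped, uninduced replicate 3 was the lowest library, and without it the change was -0.16. Ndufaf3 also overlaps Impdh2, a gene at a mean of 102 TPM on the opposite strand.

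Complex II, the succinate dehydrogenase shared with the tricarboxylic acid cycle, had 1 of 4 members called lower, 25% against 10.2% of all tested genes, and 0 after rescaling. The median change was -0.49 (-0.11 rescaled). Sdhb, its iron-sulfur subunit (chr4:140961203-140979193, plus strand, GRCm38), stood at 45.2, 44.5 and 38.9 TPM uninduced and 21.4, 16.9 and 31.5 TPM induced. Every induced library lay below every uninduced one, and the change was -0.89 ± 0.25 (limma adjusted p = 0.045) and -0.50 rescaled (limma adjusted p = 0.21). Sdha, the flavoprotein that oxidises succinate, was the most abundant of the 4 and stood at 98.7, 102 and 79.1 TPM uninduced and 79.1, 67.4 and 76.6 TPM induced. Its groups overlapped, and its change was -0.32 (limma adjusted p = 0.26) on the deposited scale and 0.085 after rescaling. The membrane anchors Sdhc and Sdhd had changes of -0.34 and -0.65 (limma adjusted p = 0.46 and 0.20), with overlap in both, and Sdhc too was above 0 after rescaling, at 0.037.

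In complex III, cytochrome bc1, 4 of 8 members were called lower, 50% against 10.2% of all tested genes, and 0 of 8 after rescaling. The median change was -0.61 (-0.21 rescaled). Uqcr10, a small subunit beside the Rieske protein and cytochrome c1 (chr11:4701973-4704342, minus strand, GRCm38), stood at 77.6, 55.8 and 50.1 TPM uninduced and 32.2, 27.7 and 13.8 TPM induced. The induced libraries all lay lower, and the change was -1.34 ± 0.31 (limma adjusted p = 0.024) and -0.94 rescaled (limma adjusted p = 0.13). Uqcrb, known as the ubiquinone-binding subunit, was steadier within groups, at 119, 136 and 114 TPM uninduced and 60.1, 63.4 and 74.6 TPM induced. Its change was -0.89 ± 0.17 (limma adjusted p = 0.010) and -0.49 rescaled (limma adjusted p = 0.066), without overlap. Uqcrq, a further small subunit, was called at -1.10 (limma adjusted p = 0.028), and was at -0.70 after rescaling (limma adjusted p = 0.17).

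The core proteins of complex III, with the catalytic Rieske protein, had 1 of 3 members called lower, 33.3% against 10.2% of all tested genes, and 0 after rescaling. Their median change was -0.087 (0.31 rescaled), above the -0.35 of all tested genes and unlike the median of the whole complex. Uqcrc2 stood at 41.0, 47.8 and 38.0 TPM uninduced and 25.6, 21.7 and 28.5 TPM induced, a change of -0.72 ± 0.20 (limma adjusted p = 0.049) and -0.32 rescaled (limma adjusted p = 0.29). Uqcrc1 stood at 2.22, 10.99 and 2.69 TPM uninduced and 1.98, 12.1 and 3.85 TPM induced, with a change of 0.14 ± 0.63 (limma adjusted p = 0.91). The replicates numbered 2 were high in both groups, the groups overlapped, and leaving out 1 library at a time gave changes from -0.46 (without induced replicate 2) to 0.74 (without uninduced replicate 2). Uqcrfs1, the Rieske iron-sulfur protein, had 21.6, 34.5 and 37.2 TPM uninduced and 27.6, 30.0 and 27.8 TPM induced, a change of -0.087 (limma adjusted p = 0.85) that became 0.31 after rescaling. Uqcrh, the hinge protein and the most abundant member of the complex, had 153, 129 and 148 TPM uninduced and 154, 130 and 115 TPM induced. Its groups overlapped, and its change was -0.11 (limma adjusted p = 0.69) and 0.29 rescaled (limma adjusted p = 0.38). Cyc1, the cytochrome c1 subunit, lies outside the naming rule and had a change of -0.84 (limma adjusted p = 0.092).

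**Figure D2:**
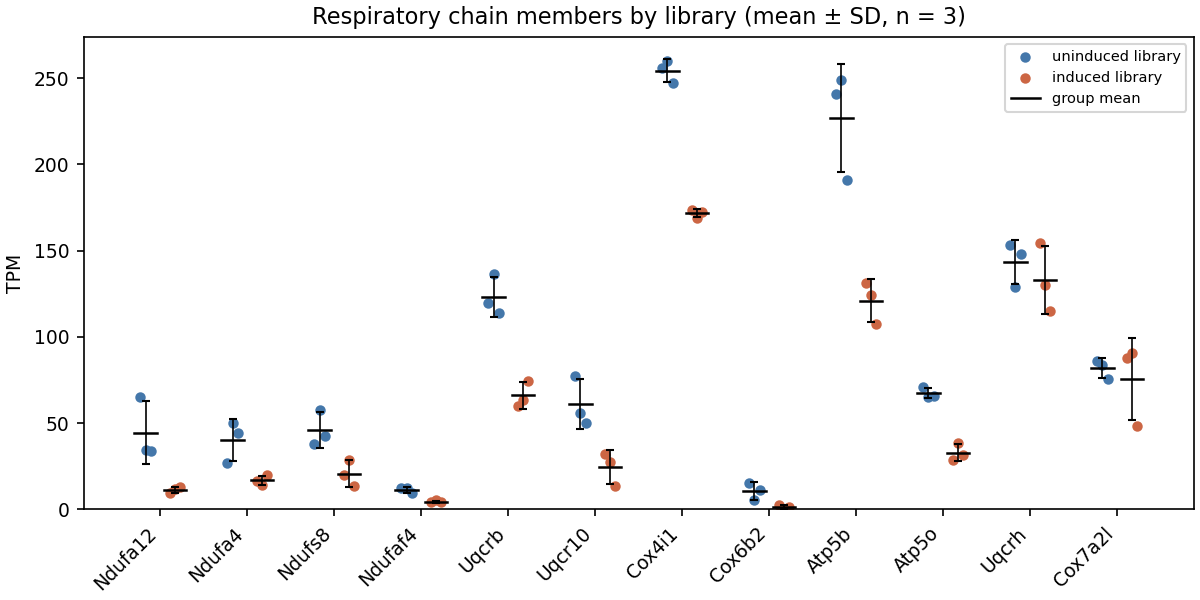
TPM (y axis) of 12 members (x axis) in each library, with points for libraries and bars for the group mean ± SD (n = 3). The 10 members from Ndufa12 to Atp5o do not overlap between the groups, for example Atp5b at 191 to 249 TPM uninduced and 107 to 131 TPM induced, while Uqcrh and Cox7a2l overlap.

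Complex IV, cytochrome c oxidase, had 13 tested members, of which 3 were called lower, 23.1% against 10.2% of all tested genes, and 0 after rescaling, with a median change of -0.61 (-0.21 rescaled). Cox4i1, the regulatory subunit found in most tissues and the most abundant member of all, was very even within groups. It stood at 256, 260 and 247 TPM uninduced and 173, 169 and 172 TPM induced. The groups did not overlap, yet the change of -0.56 ± 0.13 (limma adjusted p = 0.024) equalled the members' median, and it was -0.16 after rescaling (limma adjusted p = 0.47). Cox6a1, the widely expressed form of subunit VIa, was the third called member at -1.08 ± 0.26 (limma adjusted p = 0.028) and -0.68 rescaled (limma adjusted p = 0.11).

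Cox6b2, the testis-enriched form of subunit VIb (chr7:4751792-4753094, minus strand, GRCm38), had the lowest change of all members. It stood at 15.2, 5.28 and 11.5 TPM uninduced and 2.59, 0.154 and 1.46 TPM induced. Uninduced and induced libraries did not overlap, and the change was -2.32 ± 0.51 (limma adjusted p = 0.020) and -2.04 rescaled (limma adjusted p = 0.062). Its widely expressed counterpart Cox6b1 stood at 65.1, 80.5 and 67.3 TPM uninduced and 52.7, 42.2 and 42.4 TPM induced, a change of -0.62 (limma adjusted p = 0.056). As a share of the summed TPM of this pair, which does not depend on how a library is scaled, Cox6b2 held 18.9%, 6.16% and 14.5% in the uninduced and 4.69%, 0.364% and 3.32% in the induced libraries. The group means were 13.2% ± 6.47 (SD, n = 3) and 2.79% ± 2.21 (SD, n = 3), with no overlap between the groups.

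The other isoform pairs of complex IV gave no such separation. Cox4i2, the lung-enriched and oxygen-responsive form of subunit IV, stood at 10.2, 0 and 1.76 TPM uninduced and 2.12, 1.87 and 4.99 TPM induced, with a change of 0.26 ± 0.77 (limma adjusted p = 0.86) that ran from -0.56 without uninduced replicate 2 to 1.18 without uninduced replicate 1. It held 1.51% ± 2.04 of the Cox4i pair uninduced and 1.70% ± 0.960 induced (SD, n = 3), with overlap. Cox7a2l, a factor that joins complexes III and IV into supercomplexes, stood at 86.2, 83.8 and 75.3 TPM uninduced and 87.7, 90.4 and 48.3 TPM induced. Its groups overlapped, with induced replicate 3 apart from the other induced libraries, and its change was -0.17 (limma adjusted p = 0.69), 0.24 after rescaling and 0.12 on the deposited scale without induced replicate 3. Cox7a2, the paralog in the enzyme itself, had a change of -0.79 (limma adjusted p = 0.18), and the share of Cox7a2l in the family was 74.6% ± 3.75 uninduced and 80.6% ± 11.3 induced (SD, n = 3), with overlap. The core-associated Cox5a and Cox5b had changes of -0.43 and -0.74 (limma adjusted p = 0.44 and 0.066), and Cox5b was called at -0.93 without induced replicate 3 (limma adjusted p = 0.0496). Cox8a, the only Cox8 gene above 0, had 109, 67.3 and 127 TPM uninduced and 100, 24.7 and 50.2 TPM induced, with a change of -0.95 ± 0.43 (limma adjusted p = 0.18). Its change was -0.45 without induced replicate 2, and without induced replicate 1 it was called at -1.44 (limma adjusted p = 0.048).

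Complex V had the lowest median of the complexes, -0.71 on the deposited scale and -0.30 after rescaling, and 17 of its 18 genes were tested. Of these, 5 were called lower and 0 higher, 29.4% against 10.2% of all tested genes called lower, and 0 were called after rescaling. All 17 changes were below 0 on the deposited scale and 15 after rescaling. In 13 of the 17, 76.5%, every induced library lay below every uninduced one, against 28.2% of all tested genes, and in 5, 29.4%, after rescaling, against 14.3%. Complex V had the lowest median in 4 of the 6 fits that left out a library. Relative to all tested genes its median was -0.36 in the full data and -0.22 without uninduced replicate 1, where complex IV stood at -0.37, and -0.26 without uninduced replicate 3, where complex III stood at -0.42. Atp5b, the catalytic beta subunit of the F1 head (chr10:128083273-128090391, plus strand, GRCm38), stood at 241, 249 and 191 TPM uninduced and 131, 124 and 107 TPM induced. Its change was -0.90 ± 0.16 (limma adjusted p = 0.0091) and -0.49 rescaled (limma adjusted p = 0.078), without overlap.

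Atp5o, which ties the head to the peripheral stalk (chr16:91925214-91931687, minus strand, GRCm38), stood at 70.7, 65.4 and 65.9 TPM uninduced and 28.8, 38.5 and 31.4 TPM induced. No induced library reached the lowest uninduced one, and the change was -1.02 ± 0.19 (limma adjusted p = 0.0090) and -0.62 rescaled (limma adjusted p = 0.092). Atp5a1, the alpha subunit of the head, was also called, at -1.13 ± 0.30 (limma adjusted p = 0.042), from 13.4, 23.4 and 12.0 TPM uninduced and 6.71, 6.98 and 6.09 TPM induced, and was at -0.76 after rescaling (limma adjusted p = 0.15). Atp5d, the delta subunit of the central stalk, and Atp5j2, a subunit of the membrane part, completed the called set at -0.79 and -1.11 (limma adjusted p = 0.025 and 0.021), with -0.39 and -0.71 after rescaling (limma adjusted p = 0.18 and 0.10). Atp5c1, the gamma subunit that turns inside the head, had a change of -0.37 (limma adjusted p = 0.17) and 0.039 after rescaling, although its groups did not overlap on the deposited scale. Atp5e, the epsilon subunit, had the highest change of the complex at -0.33 (limma adjusted p = 0.41) and 0.072 after rescaling.

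Atp5md, a small protein that helps the enzyme to pair up in the membrane, had the lowest change of complex V, -2.19 ± 1.15 (limma adjusted p = 0.25), which was -0.42 without induced replicate 2. It stood at 49.0, 66.8 and 45.2 TPM uninduced, at 39.4 TPM in induced replicates 1 and 3 and at 0 in induced replicate 2. A pseudogene on chromosome X, Gm14539, is 100% identical to the coding sequence of Atp5md. That copy was listed at 36.2, 27.5 and 19.3 TPM uninduced and 22.9, 17.3 and 11.2 TPM induced. Whether reads of the gene were assigned to the copy was not tested. Gene and copies together stood at 63.04, 17.4 and 50.7 TPM in the induced libraries.

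The c-ring that turns in the membrane is built from 1 protein encoded by 3 genes, Atp5g1, Atp5g2 and Atp5g3, which yield the same mature protein after different import signals are removed. The stretches below come from that shared part, 120 bases that start 228 bases before the end of each coding sequence (GRCm38, coding strand, 5′ to 3′). Capitals mark the 29 positions at which the genes are not all alike, which is what lets reads of these 3 genes be told apart.
Atp5g1: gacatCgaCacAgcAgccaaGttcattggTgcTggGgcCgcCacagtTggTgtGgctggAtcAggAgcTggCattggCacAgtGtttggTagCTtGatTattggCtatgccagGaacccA
Atp5g2: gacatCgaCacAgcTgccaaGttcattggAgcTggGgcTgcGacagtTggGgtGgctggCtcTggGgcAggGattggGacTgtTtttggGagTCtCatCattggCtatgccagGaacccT
Atp5g3: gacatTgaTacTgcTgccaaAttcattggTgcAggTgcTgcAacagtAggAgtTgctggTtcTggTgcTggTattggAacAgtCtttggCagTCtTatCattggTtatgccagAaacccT
Over the last 228 bases of the coding sequence, Atp5g1 and Atp5g2 were 85.1% identical, Atp5g1 and Atp5g3 79.8%, and Atp5g2 and Atp5g3 78.5%. By the genes' own rows Atp5g3 was the most abundant. It stood at 53.7, 43.6 and 44.0 TPM uninduced and 31.9, 33.6 and 25.4 TPM induced, without overlap. Its change was -0.62 (limma adjusted p = 0.075). Atp5g2 and Atp5g1 had changes of -0.74 and -0.94 (limma adjusted p = 0.36 and 0.41), both with overlap. Single libraries moved both: leaving out 1 at a time gave -1.17 (without induced replicate 3) to -0.24 (without induced replicate 1) for Atp5g2, and -1.65 (without uninduced replicate 3) to -0.34 (without induced replicate 1) for Atp5g1.
The 3 genes together summed to 97.2, 78.6 and 57.0 TPM uninduced and 38.1, 51.3 and 53.5 TPM induced, which did not overlap. Each gene's share of that sum overlapped between the groups, with Atp5g3 at 62.6% ± 12.6 uninduced and 65.6% ± 18.1 induced (SD, n = 3). These sums and shares leave out pseudogene copies. Copies held 82.9% of the summed TPM of Atp5g1 and its copies, and 27.6% in the case of Atp5g2.

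Near-identical pseudogenes were common among the members. Of 94 members with an annotated coding sequence, 32 had at least 1 pseudogene that matched 90% or more of the bases over 80% or more of the coding sequence, 73 copies in all, and in 16 members the copies held over 10% of the summed TPM. Of the 21 called members, 7 had a copy.

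Atp5h, the d subunit of the peripheral stalk, is given as an example chosen after its values were seen. Its own row stood at 238, 180 and 203 TPM uninduced and 148, 157 and 123 TPM induced. The row of its 99.0% identical copy Gm10250 (chr15:5120654-5121135, minus strand, GRCm38) stood at 69.5, 130 and 103 TPM and at 57.5, 52.3 and 81.8 TPM, high where the gene's row was low. Summed with its copies, Atp5h stood at 308, 309 and 306 TPM uninduced and 205, 209 and 205 TPM induced, so the SD within groups was 1.93 and 2.46 TPM (n = 3). The summed change was -0.57 ± 0.13 (limma adjusted p = 0.021), where the gene alone had -0.53 ± 0.17 (limma adjusted p = 0.068).

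With all members summed with their copies, 24 members were called lower: the 21 called before and Atp5h, Atp5g1 and Ndufab1. This is 27.3% of the 88 members tested in that fit, against 10.2% of all tested genes called lower. Atp5g1 shows how far a member can depend on this, since its copy Gm10039, 99.8% identical, held most of the sum at 34.4 ± 6.60 TPM uninduced and 15.9 ± 6.83 TPM induced (SD, n = 3). The summed Atp5g1 level was 51.4, 45.1 and 28.8 TPM against 17.5, 12.5 and 27.2 TPM, a change of -1.12 ± 0.31 (limma adjusted p = 0.047). Ndufab1, the mitochondrial acyl carrier protein, changed from -0.24 (limma adjusted p = 0.73) alone to -0.93 (limma adjusted p = 0.035) summed. For Uqcrb with its 4 copies the summed change was -0.96 ± 0.15 (limma adjusted p = 0.0053). After median-of-ratios scaling, Ndufa12 was again the only member called, with Uqcrb next to it at -0.55 (limma adjusted p = 0.052).

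**Figure D3:**
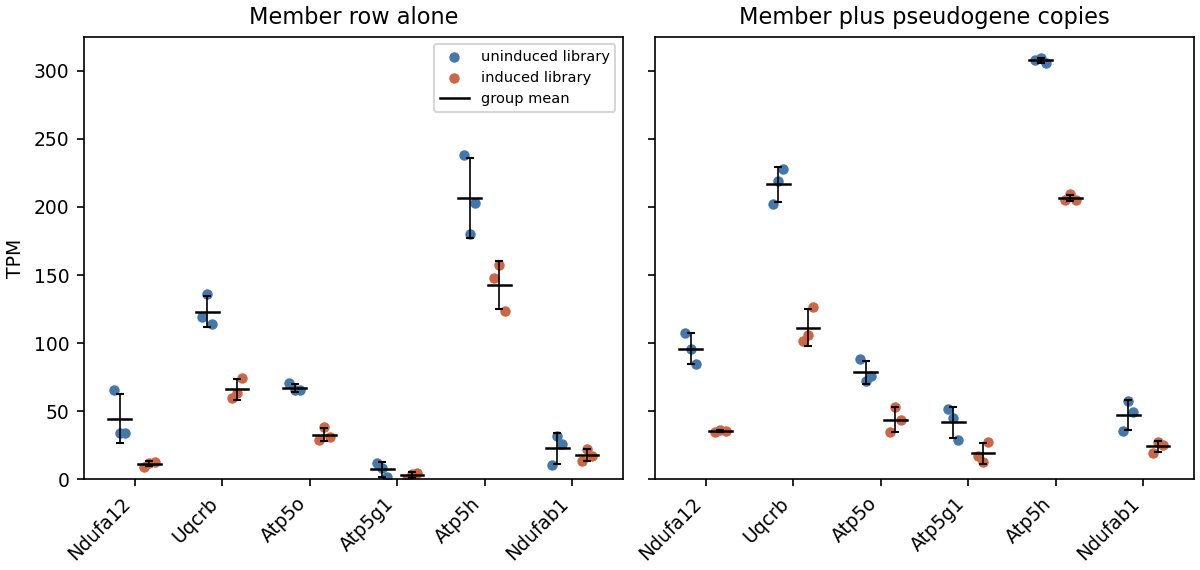
TPM (y axis) of 6 members (x axis) in each library, for the gene's own row (left) and for the sum of the gene and its pseudogene copies (right), with bars for the group mean ± SD (n = 3). The libraries of Ndufa12 and Atp5h draw together when summed, with Ndufa12 at 34.7 to 35.9 TPM and Atp5h at 205 to 209 TPM in the induced group.

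Summed over all members, the respiratory chain stood at 5159, 5473 and 4702 TPM uninduced and 3530, 3202 and 3509 TPM induced. These groups did not overlap, and the induced mean was 0.668 of the uninduced mean. The summed TPM of all nuclear protein-coding genes was also lower in the induced libraries, at 0.736 of the uninduced mean. The members' share of that sum was 1.73%, 1.66% and 1.77% uninduced and 1.60%, 1.56% and 1.51% induced, or 1.72% ± 0.0516 against 1.56% ± 0.0474 (SD, n = 3). The shares did not overlap, and the induced share was 0.906 of the uninduced share.

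By complex, the share of nuclear protein-coding TPM did not overlap between the groups for complex V, which held 0.525%, 0.510% and 0.545% uninduced and 0.471%, 0.455% and 0.438% induced. For complexes I to IV the shares overlapped, with ratios of the induced to the uninduced mean of 0.952, 0.954, 0.909 and 0.880. Whether complex V differs from the other complexes was not tested.

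**Figure D4:**
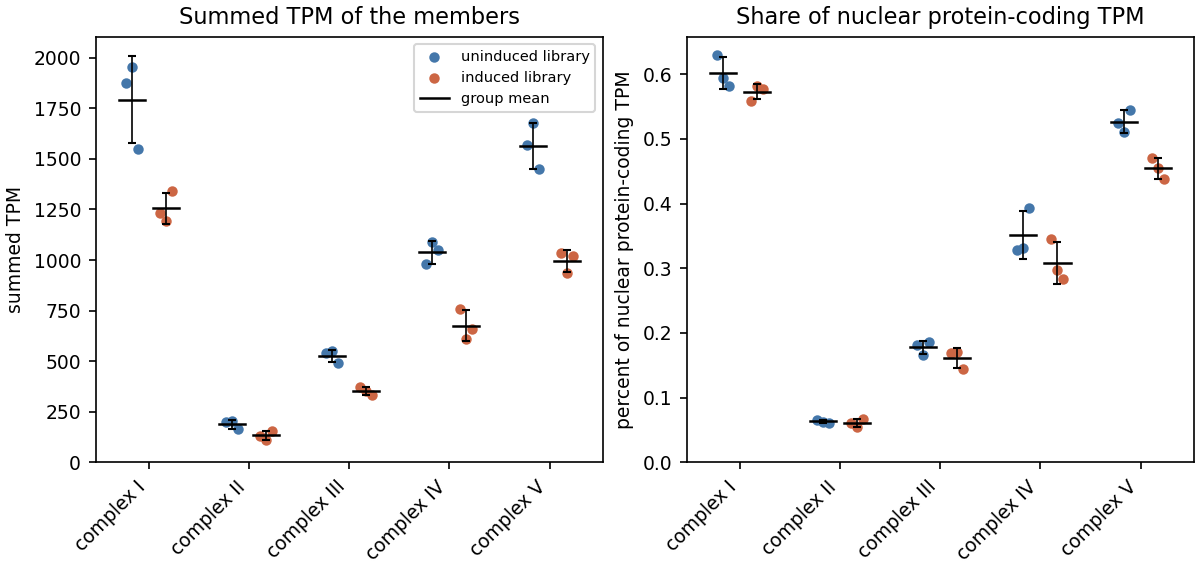
Summed TPM of the members of each complex (left, y axis) and their share of the TPM of nuclear protein-coding genes in percent (right, y axis), by complex (x axis) and library, with bars for the group mean ± SD (n = 3). The summed levels of the groups are apart in every complex on the left, and on the right complex V alone is free of overlap, at 0.510% to 0.545% uninduced and 0.438% to 0.471% induced.

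The subunits encoded by mitochondrial DNA summed to 10547 ± 1246 TPM uninduced and 5982 ± 157 TPM induced (SD, n = 3), without overlap. All 13 were tested, 6 (46.2%, against 10.2% of all tested genes) were called lower and 0 higher, and their median change was -0.66 (-0.29 rescaled). Their rows were listed at very different levels, with 6 of the 13 (mt-Nd3, mt-Nd4l, mt-Co3, mt-Atp6, mt-Atp8 and mt-Co2) at means of 1.84 to 37.3 TPM and the other 7 at 289 TPM or more, and whether the low rows are sound estimates was not tested. mt-Co3 was at -0.13 on the deposited scale and 0.24 after rescaling, where its induced libraries all lay above the uninduced ones. The called genes were mt-Nd5, mt-Co1, mt-Nd1, mt-Cytb, mt-Nd6 and mt-Nd2, and mt-Nd5, mt-Co1 and mt-Nd1 were also called after rescaling. mt-Co1, the catalytic subunit of complex IV, stood at 3192, 3165 and 2615 TPM uninduced and 1603, 1512 and 1754 TPM induced. Without overlap of the groups, the change was -0.88 ± 0.13 (limma adjusted p = 0.0043) and -0.47 rescaled (limma adjusted p = 0.011).

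The ratio of mitochondrially encoded to nuclear-encoded subunit TPM within a library does not depend on scaling. It was 2.15, 2.09 and 1.94 uninduced and 1.72, 1.81 and 1.73 induced, means of 2.06 ± 0.109 and 1.75 ± 0.0498 (SD, n = 3), without overlap. In complex I the ratio was 2.54 ± 0.0435 uninduced and 2.02 ± 0.229 induced (SD, n = 3), also without overlap. The value of induced replicate 3, 1.75, was the lowest, and in that library mt-Nd4 was listed at 20.9 TPM, against 473 and 471 TPM in the other induced libraries. In complexes III, IV and V the ratios overlapped, and that of complex V rests on the low rows of mt-Atp6 and mt-Atp8.

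**Figure D5:**
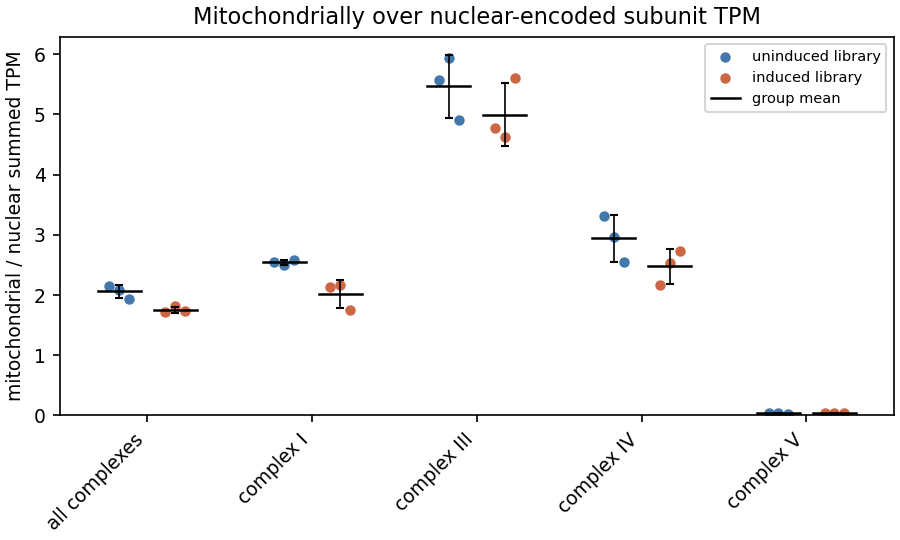
Ratio of the summed TPM of mitochondrially encoded subunits to that of nuclear-encoded members (y axis) in each library, over all complexes and for complexes I, III, IV and V (x axis), with bars for the group mean ± SD (n = 3). The groups are apart over all complexes, at 1.94 to 2.15 uninduced and 1.72 to 1.81 induced, and in complex I, and overlap in the other complexes.

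Genes that work beside the chain were read from lists drawn up apart from the naming rule. Of 16 electron carrier genes, 3 were called lower and 0 higher, with a median change of -0.78 (-0.40 rescaled). This is 18.8%, against 10.2% of all tested genes, and after rescaling 12.5% of the list lay lower without overlap, against 14.3%. Cycs, the cytochrome c that shuttles electrons between complexes III and IV, stood at 17.5, 10.8 and 13.01 TPM uninduced and 4.13, 5.998 and 5.76 TPM induced, without overlap and with a change of -1.22 ± 0.30 (limma adjusted p = 0.030). Coq2, an enzyme of ubiquinone synthesis, and Etfb, which feeds electrons from fatty acid oxidation, were called at -0.82 and -0.77 (limma adjusted p = 0.045 and 0.025). These 3 were not called after rescaling.

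Of 39 tested assembly factors outside the naming rule, 1 was called lower and 0 higher, 2.56% against the 10.2% of all tested genes, and their median change was -0.36. The called gene was Uqcc2, a complex III assembly factor, at 43.9, 61.1 and 57.5 TPM uninduced and 26.4, 16.6 and 28.2 TPM induced. Its groups did not overlap and its change was -1.18 ± 0.25 (limma adjusted p = 0.016), with -0.78 after rescaling (limma adjusted p = 0.080).

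Of 12 tested regulators of respiratory genes, 2 were called lower and 0 higher, 16.7% against 10.2% of all tested genes. Lrpprc, which stabilises mitochondrial messenger RNAs, stood at 20.3, 22.8 and 20.4 TPM uninduced and 10.2, 5.75 and 5.71 TPM induced, without overlap. It was called on both scales, at -1.47 ± 0.28 (limma adjusted p = 0.011) and -1.10 rescaled (limma adjusted p = 0.049). Pprc1, a coactivator of the PGC-1 family that is linked to growth, was called on the deposited scale at -1.66 ± 0.37 (limma adjusted p = 0.021) and not after rescaling (limma adjusted p = 0.083).

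The tricarboxylic acid cycle supplies the chain with NADH and succinate, and 5 of its 16 listed genes (31.2%, against 10.2% of all tested genes) were called lower and 0 higher, with a median change of -0.70 (-0.31 rescaled). Idh3g and Idh3a, subunits of the NAD-dependent isocitrate dehydrogenase, were called on both scales, at -1.24 and -1.30 on the deposited scale (limma adjusted p = 0.0049 and 0.0081) and -0.84 and -0.91 after rescaling (limma adjusted p = 0.024 and 0.032). Pdhb, Cs and Mdh2 were called on the deposited scale alone, at -1.43, -1.09 and -0.89.

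Respiratory genes are known targets of NRF1 and of GABPA (also called NRF2), and YY1 sites are known near their starts, so the members' promoters were searched for short core motifs of these factors on both strands. The window ran from 250 bases before to 50 bases after the start, and 81 promoters of 76 members were in the RefSeq table (GRCm38.p6). The NRF1 motif GCGCATGC, or GCATGCGC on the other strand, was in 14.8% of the members' promoters and 2.71% of all 32851 promoters. The YY1 motif AAGATGGC, or GCCATCTT, was in 13.6% against 2.75%. The GABPA motif CCGGAAGT, or ACTTCCGG, was in 6.17% against 3.89%. Counted by gene among protein-coding genes averaging 1 TPM or more, NRF1 stood at 16.7% of the 72 members in the table and 6.53% of all 8483 genes, YY1 at 15.3% and 5.78%, and GABPA at 5.56% and 10.1%.

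Counts by call were small. The NRF1 motif was in 3 of 15 called members with a promoter in the table and 9 of 57 tested members not called, YY1 in 2 and 9, and GABPA in 0 and 4. The called members with the NRF1 motif were Ndufaf4, Sdhb and Cox6a1. The 60-base stretches below lie upstream of annotated exons and show what a match looks like, with the motif in capitals, 5′ to 3′ on the gene's strand, for 1 called member (Ndufaf4) and 3 that were not called, at chr4:24897944-24898003 (plus), chr15:82354341-82354400 (minus), chr9:44920933-44920992 (minus) and chr10:80406854-80406913 (minus) in that order. The Uqcr11 stretch shows the GABPA motif and the others the NRF1 motif, and the Uqcr11 promoter also holds an NRF1 motif outside the bases shown.
Ndufaf4: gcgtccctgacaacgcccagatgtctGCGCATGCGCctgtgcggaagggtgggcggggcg
Ndufa6: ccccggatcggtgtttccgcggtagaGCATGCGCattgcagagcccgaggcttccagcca
Atp5l: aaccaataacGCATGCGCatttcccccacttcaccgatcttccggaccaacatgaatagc
Uqcr11: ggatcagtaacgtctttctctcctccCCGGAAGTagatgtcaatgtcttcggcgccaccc
The Ndufaf4 stretch holds both strand forms of the NRF1 motif, overlapping in 1 run. Ndufa6, with the same motif, was among the 7 members with changes above 0, at 0.31 (limma adjusted p = 0.54), from 111, 165 and 64.0 TPM uninduced and 114, 124 and 160 TPM induced, with overlap.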

How the data were processed

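Total RNA of 6 libraries of sorted mouse stem cells, 3 uninduced and 3 induced, was measured by RNA sequencing. The deposited table gives TPM per gene, made by the authors with bcl2fastq, HISAT2 and StringTie on GRCm38, per the submitters' processing notes, which also name DESeq2. Versions, strand setting and annotation release are not given in the sources used here. The deposited GC percent column was used for a GC correction. Every column summed to 999976 to 999993 TPM, and the table holds no read counts, so depth is unknown and precision rests on the spread between libraries.

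Rows that repeated an identifier (5025 of 60496) were summed, which left 55471 genes. Differences were tested with limma 3.58.1 in R 4.3.3 on log2(TPM + 1), with a variance trend, for genes with a mean of 1 TPM or more, two-sided, with Benjamini-Hochberg adjustment over all tested genes and a threshold of 0.05. The fit was tested on simulated data. Sums, shares and ratios got no test. Positions come from GENCODE M21 (GRCm38), to which 55230 identifiers matched. Pseudogene copies were found with BLAST 2.17.0, and promoters come from RefSeq (GRCm38.p6).

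The members and lists were chosen with earlier results of these data known. Described in full were members called on both scales, the 5 largest changes among those called on 1 scale, the highest and lowest change of each complex, the core subunits and the isoform sets, and of the other lists up to 5 called genes each. Further names were added after their values were seen. Alternatives covered the pseudocount, the filter, the scaling, the variance trend, library weights, the replicate number as a block, GC and length correction, repeated rows, leaving out each library, and, added after seeing the data, summing members with their copies. Protein sequences were not used here. The values of 1 core subunit that the naming rule covers, and of 1 stem cell marker, are not reported here.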

Additional observations from a re-analysis of the deposited data

How the results depend on the processing

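The direction of the complexes against the typical gene held in every alternative run, while the count of called members did not. Against 21 called members and 1549 called genes, the counts were 5 and 752 without an expression filter, 1 and 806 after median-of-ratios scaling, 1 and 814 after quantile normalization, 2 and 886 after rescaling to nuclear protein-coding genes, 4 and 767 without a variance trend, and 2 and 868 with a GC and length correction. The gene counts cover both directions, while every called member was lower. Against 24.1% of members and 10.2% of all tested genes called lower, the shares were 5.75% and 2.85% without a filter, but the members' share fell below that of all genes after median-of-ratios scaling (1.15% and 3.1%), quantile normalization (1.15% and 3.27%) and rescaling to nuclear protein-coding genes (2.3% and 4.27%), without a variance trend (4.6% and 4.89%) and with the GC and length correction (2.3% and 3.79%). Leaving out 1 library gave 5 to 16 members and 611 to 1276 genes. Same-numbered libraries had correlations of 0.021, -0.015 and 0.017 in their deviations from the group means, and other pairs had -0.040 to 0.022. Whether the labels' replicate numbers pair the libraries cannot be decided from so few libraries. With the replicate block 12 members and 902 genes were called, and with the block and the GC and length correction 2 and 602 (13.8% and 5.81% called lower with the block, 2.3% and 2.61% with both). Summing members with their copies together with median-of-ratios scaling, an alternative chosen after seeing the data, gave 1 and 804. Without a filter more genes were tested (23013 against 13470), and a left-out library leaves fewer samples. What moved the counts in each alternative was not tested.

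The median change minus that of all tested genes was -0.14, -0.15, -0.26, -0.27 and -0.36 for complexes I to V. Without a filter it was -0.35, -0.35, -0.47, -0.47 and -0.57, and with a pseudocount of 5 complex I had -0.22. Leaving out 1 library gave ranges of -0.25 to -0.12, -0.27 to -0.073, -0.42 to -0.18, -0.37 to -0.19 and -0.43 to -0.22, and complex V had the lowest median in 4 of these 6 fits. With copies summed and median-of-ratios scaling, complexes IV and V had -0.17 and -0.28.

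Changes that passed no threshold switched sign in some members. Changes below 0 numbered 80 on the deposited scale and 65 after median-of-ratios scaling. The values below cover members described in full, and further members such as Uqcrh are not listed. After median-of-ratios scaling, quantile normalization, rescaling to nuclear protein-coding genes, and copies summed with median-of-ratios scaling, in that order, the values were 0.085, 0.078, 0.12 and 0.085 for Sdha, 0.037, 0.020, 0.071 and 0.036 for Sdhc, 0.31, 0.31, 0.35 and 0.31 for Uqcrfs1, 0.24, 0.22, 0.27 and 0.24 for Cox7a2l, 0.072, 0.057, 0.10 and 0.072 for Atp5e, and 0.039, 0.036, 0.069 and 0.039 for Atp5c1. Under the correction for GC and length they were, with the block and without it alike, 0.024 for Sdha, 0.015 for Sdhc, 0.19 for Uqcrfs1 and 0.12 for Cox7a2l. Cox4i2 was at -0.024 with a pseudocount of 5. Leave-out ranges that crossed 0 were -0.16 to 1.19 for Ndufaf3, -0.46 to 0.74 for Uqcrc1, -0.56 to 1.18 for Cox4i2, -0.32 to 0.057 for Uqcrfs1 and -0.32 to 0.12 for Cox7a2l. Other ranges were wide without crossing 0, such as -0.48 to -0.091 for Atp5e, -0.70 to -0.17 for Cox5a and -0.52 to -0.16 for Sdhc. They were -0.97 to -0.43 for Sdhd, -1.03 to -0.39 for Cox7a2 and -0.63 to -0.26 for Ndufs7. Depth is unknown, so levels near 0 cannot be told from a failed estimate.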
